A study of Mus musculus with 4 samples.

Results

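The expression of 9 genes of the neurexin, neuroligin and Lrrtm families (Nrxn2, Nrxn3, Nlgn1, Nlgn2, Nlgn3, Lrrtm1, Lrrtm2, Lrrtm3 and Lrrtm4) was described among 31053 genes counted in single brain nuclei. The 9 genes were taken by name from these families, without regard to their measured values. Single-nucleus RNA sequencing had been done on 4 libraries from 8-week-old male C57BL/6J mice, labelled as cortical or striatal cells of mice given AAV-VEGF-C or AAV-CTRL. AAV-VEGF-C was an adeno-associated virus encoding full-length mouse VEGF-C, a growth factor of lymphatic vessels. AAV-CTRL encoded a soluble, immunoglobulin-tailed part of the receptor VEGFR-3 that does not bind VEGF-C, so that mice of both groups had received a virus by injection into the cerebrospinal fluid and none were uninjected. Brains of 5 mice were pooled per AAV group, both region labels of an AAV group came from the same mice, and each group held 1 library. No difference below could therefore be tested against the spread between animals, and all intervals cover counting error only.

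Neurexins are membrane proteins of the presynaptic terminal, encoded by very large genes that are spliced into many forms. Neuroligins and the leucine-rich repeat proteins of the Lrrtm family are postsynaptic partners that bind neurexins across the synaptic cleft. Neuroligin 1 is best known from excitatory synapses, neuroligin 2 from inhibitory synapses and neuroligin 3 from both, whereas Lrrtm proteins act mainly at excitatory synapses. Neuroligins, and neurexins, are also made by astrocytes and oligodendrocyte precursor cells (OPCs), a dividing glial cell that receives synapses from neurons.

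The last 30 coding bases of the 2 neurexins and 3 neuroligins are shown because they encode the intracellular tails through which the families reach their scaffolds. The final residues of neurexins bind the PDZ domain of Cask and those of neuroligins a PDZ domain of PSD-95, the product of Dlg4. Sequences are from GRCm38 with GENCODE vM21 transcripts, are written 5′ to 3′ on the coding strand, and carry the last 4 codons and the stop codon in capitals.
Nrxn2: aagaacaaagacaaaGAGTATTACGTCTGA
Nrxn3: aaaaacaaggacaagGAGTATTATGTGTAA
Nlgn1: ccccattcacattcaACAACCAGGGTATAG
Nlgn2: ccccatccccactccACCACTCGGGTATAG
Nlgn3: ccccactcacactccACTACCCGTGTATAG
The neurexin ends lie at chr19:6532119-6532148 (plus strand) and chr12:90332381-90332410 (plus strand), and matched 24 of 30 bases of each other. The neuroligin ends lie at chr3:25433638-25433667 (minus strand), chr11:69825203-69825232 (minus strand) and chrX:101320233-101320262 (plus strand), in the order Nlgn1, Nlgn2 and Nlgn3. Between neuroligins 23 to 24 of 30 bases matched, and between Nrxn2 and Nlgn1 7 of 30 did. Each end was shared by all coding transcripts with an annotated stop codon, except that for Nrxn2 it was found in 7 of 8.

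The genes differ widely in the length of genome they span. Nrxn3 (chr12:88722876-90334935), Nlgn1 (chr3:25426215-26332460) and Lrrtm4 (chr6:80018877-80810143) span 1612060, 906246 and 791267 bases. Lrrtm3 (chr10:63928472-64090277) and Nrxn2 (chr19:6418731-6544169) span 161806 and 125439 bases, and Nlgn3 (chrX:101299168-101325963), Lrrtm1 (chr6:77242689-77257791), Nlgn2 (chr11:69823122-69837784) and Lrrtm2 (chr18:35209003-35215024) span 6022 to 26796 bases. Of the Lrrtm genes, 3 lie within alpha-catenin genes and on the opposite strand to them, Lrrtm1 in Ctnna2, Lrrtm2 in Ctnna1 and Lrrtm3 in Ctnna3. Of their annotated exons, 0 of 9 for Lrrtm1, 2 of 4 for Lrrtm2 and 0 of 9 for Lrrtm3 overlap exons of the gene around them. Whether strand was used in the counting is not given in the sources used here, so reads of such a pair cannot be told apart with certainty. Levels are not compared between genes below, since gene lengths differ and whether reads of introns were counted is not given either.

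The libraries held 17168 to 23724 nuclei and 63165470 to 78332657 unique molecular identifiers (UMIs, the counts of single RNA molecules), and 16133 to 21254 nuclei per library were kept after removal of doublets, with a median of 2126 to 2648 UMIs. Pairs of libraries shared 76 to 118 cell barcodes, at most 0.66% of the smaller library. The labels went with cortical and against striatal genes. Slc17a7, a glutamate transporter of cortical excitatory neurons, was at 421 and 462 UMIs scaled to 1000000 per library (CPM) in the libraries labelled cortex (AAV-CTRL, AAV-VEGF-C) and at 59.7 and 42.6 CPM in those labelled striatum. Ppp1r1b, a marker of striatal projection neurons, was at 63.4 and 75.8 CPM under the cortex label and at 18.9 and 18.5 CPM under the striatum label, and nuclei like striatal projection neurons (SPN-like) numbered 1140, 1444, 394 and 294 in that order. Slc17a6, a glutamate transporter of thalamic, hypothalamic and brainstem neurons, was at 15.8 and 16.0 CPM under the cortex label and at 149 and 176 under the striatum label. Libraries are therefore called by their labels, and values of the 9 genes by class are given after the pooled ones. In the 4 libraries, in the order used throughout (cortex label with AAV-CTRL and then AAV-VEGF-C, striatum label with AAV-CTRL and then AAV-VEGF-C), 12.5%, 12.1%, 38.4% and 40.7% of kept nuclei were neurons of clusters that no marker list named, which are called here by the genes that led them.

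Transcripts of all 9 genes were detected in every library, and neurons held most of them. Nrxn3 had 4266, 4281, 3259 and 2900 CPM over all kept nuclei, of which 95.4%, 95.9%, 91.5% and 91.6% lay in neurons. For Lrrtm4 (2166, 2149, 1995 and 1771 CPM) neurons held 96.3%, 96.3%, 93.9% and 93.9%, and for Nlgn1 (2696, 2626, 2202 and 1989 CPM) 90.6%, 91.0%, 83.2% and 84.2%. These shares exceeded the 78.0%, 79.0%, 67.6% and 69.4% of all UMIs that neurons held. Nrxn2 (340, 353, 299 and 331 CPM), Nlgn2 (81.1, 83.4, 74.5 and 80.2 CPM) and Nlgn3 (76.5, 81.3, 81.6 and 85.7 CPM) were spread over neurons and other cells much as RNA in general was, with 75.8%, 79.3% and 76.6% of their UMIs in neurons in the cortex AAV-CTRL library. Lrrtm3 (368, 371, 332 and 330 CPM) was in between by label, with 90.1% and 91.1% in neurons under the cortex label and 82.6% and 79.7% under the striatum label. Lrrtm1 (39.5, 40.3, 47.2 and 55.3 CPM) and Lrrtm2 (33.7, 38.6, 41.2 and 43.7 CPM) had the fewest UMIs of the 9 genes.

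Nrxn2 had its highest level in OPC-like nuclei, at 926, 926, 907 and 913 CPM in the 4 libraries. Its next classes were granule neurons of the cerebellum (626 and 444 CPM in the striatum-labelled libraries, which held 148 and 129 such nuclei) and Vip/Lamp5 interneuron-like nuclei (423 and 484 CPM under the cortex label). The OPC-like values were thus close to each other across labels and did not overlap those of any other class. After each nucleus was thinned to 1000 UMIs, 62.1%, 57.9%, 60.8% and 60.2% of OPC-like nuclei had a UMI of Nrxn2, and before thinning 85.4%, 82.7%, 84.2% and 87.4% at median depths of 2133 to 2747.5 UMIs. In microglia-like nuclei, which form no synapses and serve here as the level of free RNA, the thinned shares were 24.9%, 21.9%, 20.5% and 15.3%, and the unthinned ones 33.7%, 29.9%, 27.2% and 26.1% at median depths of 1433 to 1804 UMIs. Slc17a7, Slc17a6 and Gad2, genes of neurons, were at 179, 63.3 and 112 CPM in the OPC-like cluster and at 318, 66.3 and 148 CPM in the microglia-like one. These values pool the 4 libraries, which the clusters hold in unequal shares, with called doublets still in. The part of free RNA or doublets in the OPC-like level of Nrxn2 was not tested. SPN-like nuclei were among the lowest for Nrxn2, at 216, 214, 158 and 195 CPM, against 280, 256, 201 and 177 CPM in microglia-like nuclei, so that in 3 of 4 libraries the SPN-like level lay below that of the background class. SPN-like nuclei held more UMIs each (median of 4454.5 to 5811.5), so the microglia-like level need not be that of free RNA in them.

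Among named classes Nrxn3 was highest in neuroblast-like nuclei, followed by the interneuron-like and GABAergic neuron-like classes. Neuroblast-like nuclei had 12757, 13095 and 10580 CPM in the 3 libraries with at least 50 of them, and a cluster led by Cpa6 and Lgr6, seen almost solely in the striatum AAV-CTRL library (300 of its nuclei), had 12665 CPM. Vip/Lamp5 interneuron-like nuclei followed at 8270 and 8914 CPM, Sst/Pvalb interneuron-like nuclei at 7676, 7260 and 6947 CPM, and GABAergic neuron-like nuclei at 7099 and 6784 CPM under the striatum label. The ranges of the Sst/Pvalb and GABAergic classes overlapped. Of excitatory classes, layer 6-like nuclei were at 6646 and 6596 CPM, in the range of SPN-like nuclei (6521, 6554, 6076 and 5546 CPM), whereas Tshz2 deep-layer-like nuclei had 2114 and 1815 CPM and thalamic glutamatergic-like nuclei 3336 and 2790 CPM. OPC-like nuclei held 2426, 2493, 2935 and 2745 CPM, and oligodendrocyte-like nuclei (709, 629, 514 and 498 CPM) did not exceed microglia-like nuclei (732, 695, 626 and 554 CPM).

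Nlgn1 was high in SPN-like nuclei, in some but not all classes of cortical excitatory neurons and in OPC-like nuclei. It was low in interneurons of the Sst and Pvalb kind. A neuronal cluster led by Igfn1 and Fam19a2 had 4500, 4876 and 4946 CPM, SPN-like nuclei 4174, 4025, 4569 and 4307 CPM, and layer 4/5-like nuclei 4066 and 3820 CPM. OPC-like nuclei, at 4009, 3790, 4452 and 4051 CPM, overlapped the SPN-like range. Sst/Pvalb interneuron-like nuclei had 1319, 1245 and 1390 CPM, below the astrocyte-like nuclei (1741, 1651, 1917 and 1698 CPM) of each of those libraries. Vip/Lamp5 interneuron-like nuclei (1967 and 1700 CPM) and layer 6-like nuclei (2036 and 2009 CPM) were close to the astrocyte-like level. The order of classes for Nlgn1 therefore differed from that for Nrxn3, in which interneurons stood near the top. Microglia-like nuclei held 382, 371, 291 and 246 CPM.

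Nlgn2 and Nlgn3 had flat profiles over neurons and, like Nrxn2, their highest level among named classes in OPC-like nuclei. The share of all genes with their highest level in that class was not computed, so this describes the 3 genes only. Nlgn2 was at 142, 146, 152 and 159 CPM in OPC-like nuclei and at 97.4, 97.8, 81.5 and 104 CPM in nuclei like excitatory neurons, the neuronal class with the highest mean among the named ones. Nlgn3 was at 172, 195, 202 and 207 CPM in OPC-like nuclei, with 95% Poisson intervals from 147 to 233 CPM over the 4 libraries. Astrocyte-like nuclei had 104, 90.5, 91.5 and 92.8 CPM of Nlgn3 and neuroblast-like nuclei 105, 126 and 94.8 CPM, and these classes did not differ beyond their spread over libraries. The microglia-like level was 78.0, 67.8, 54.9 and 49.0 CPM for Nlgn2 and 74.7, 56.1, 56.6 and 62.4 CPM for Nlgn3. No named neuronal class had a mean over libraries 2-fold above that of microglia-like nuclei for either gene. The microglia-like level need not be that of free RNA in neuronal classes with more UMIs per nucleus. After thinning, 16.1%, 18.7%, 17.6% and 19.5% of OPC-like nuclei had a UMI of Nlgn3, against 7.40%, 5.84%, 5.53% and 4.96% of microglia-like nuclei.

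**Figure D1:**
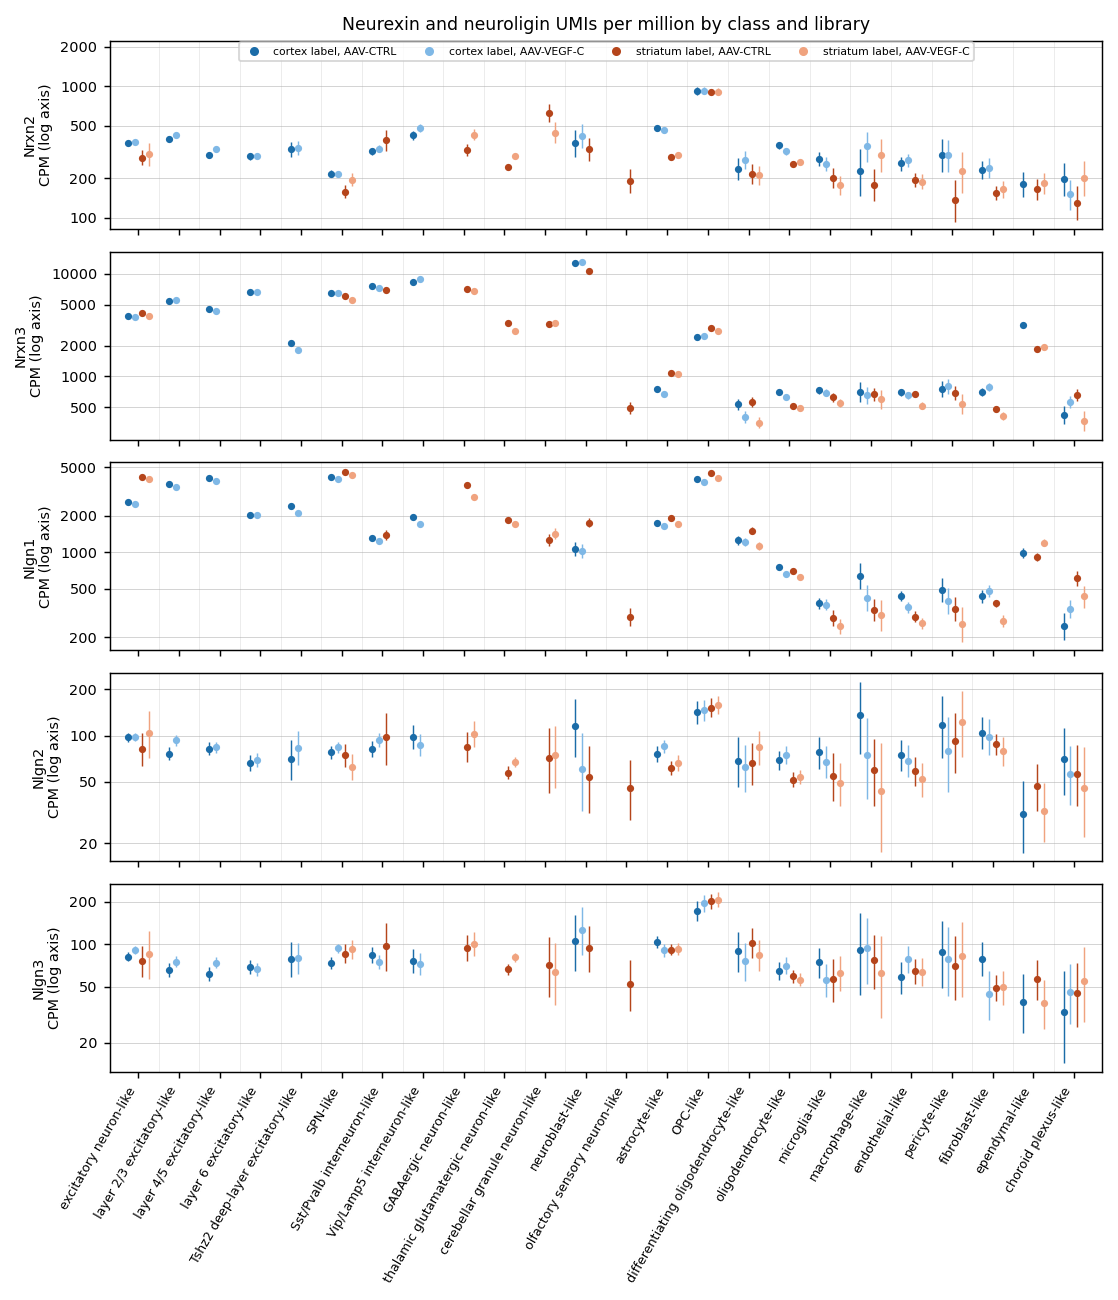
Levels of Nrxn2, Nrxn3, Nlgn1, Nlgn2 and Nlgn3 in CPM (log axis) in each named class with at least 50 nuclei in a library. Points are libraries, coloured by label, and bars are exact 95% Poisson intervals of counting error. OPC-like nuclei had the highest named-class levels of Nrxn2 (907 to 926 CPM), Nlgn2 (142 to 159 CPM) and Nlgn3 (172 to 207 CPM), whereas Nrxn3 peaked in neuroblast-like nuclei.

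Lrrtm4 and Lrrtm3 had the most similar profiles of any pair of Lrrtm genes over the 24 named classes (Pearson r of 0.727 on log2(CPM + 1), over classes that share libraries and depth), but their highest levels lay in different neurons. Lrrtm4 was highest in an unnamed neuronal cluster led by C1ql2 and Chst9, at 6068, 5849, 6268 and 5986 CPM over 471, 573, 227 and 131 nuclei. C1ql2 and C1ql3, secreted C1q-related neurexin ligands, had their highest levels in the same cluster, with a mean over libraries of 117 and 767 CPM (312 CPM of C1ql3 in layer 2/3-like nuclei, the next class), as had Gpc4, a glypican known to bind Lrrtm4, with 160 CPM (92.5 CPM in ependymal-like nuclei). The members and these partner genes had been kept out of the genes used for clustering, and the cluster was picked out here for its Lrrtm4 level, so this is a description. C1ql2, C1ql3 and Gpc4 were all among the genes that led this cluster, so their high levels restate how it is named. The other neurexin ligands are not given for it. Layer 2/3-like nuclei followed with 5466 and 5200 CPM of Lrrtm4 and a cluster led by AI481877 with 5091 and 5257 CPM. Layer 4/5-like nuclei had 1718 and 1719 CPM, layer 6-like nuclei 912 and 909 CPM and Tshz2 deep-layer-like nuclei 701 and 742 CPM, so that upper layers stood above deep layers in both libraries. OPC-like nuclei (2234, 2260, 2910 and 2732 CPM) exceeded SPN-like nuclei (1884, 1677, 2342 and 2140 CPM), and astrocyte-like nuclei (211, 220, 204 and 178 CPM) lay below microglia-like nuclei (266, 218, 298 and 174 CPM) in 2 libraries and within 5 CPM of them in the other two.

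Lrrtm3 ran the other way over cortical layers in part. It had 668 and 660 CPM in layer 6-like, 636 and 626 CPM in Tshz2 deep-layer-like, 565 and 538 CPM in layer 2/3-like and 240 and 234 CPM in layer 4/5-like nuclei. SPN-like nuclei had 718, 723, 824 and 850 CPM and cerebellar granule neuron-like nuclei, in the striatum-labelled libraries, 1077 and 676 CPM. Among glia, OPC-like nuclei (513, 493, 565 and 530 CPM) and oligodendrocyte-like nuclei (341, 321, 351 and 407 CPM) stood above microglia-like nuclei (68.2, 61.9, 56.6 and 59.96 CPM), while astrocyte-like nuclei (62.1, 62.5, 75.5 and 74.8 CPM) lay at the background level. Lrrtm3 was the only Lrrtm gene with an oligodendrocyte-like level above 4-fold that of microglia-like nuclei in every library.

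Lrrtm1 and Lrrtm2 were lowly counted. Lrrtm1 was highest among named classes in thalamic glutamatergic-like nuclei, at 74.0 and 88.1 CPM under the striatum label, and a neuronal cluster led by Kcnmb2 and Fign had 74.6 and 108 CPM. OPC-like nuclei had 55.0, 55.9, 58.0 and 62.9 CPM and microglia-like nuclei 27.1, 23.2, 46.6 and 35.5 CPM. Lrrtm2 was near flat, with 64.0 and 74.5 CPM in layer 6-like nuclei and 65.9 and 66.7 CPM in thalamic glutamatergic-like nuclei, which did not differ beyond their spread, and 24.2 and 28.1 CPM in layer 2/3-like nuclei. SPN-like nuclei (32.9, 35.7, 34.8 and 32.7 CPM) did not stand clear of microglia-like nuclei (27.1, 35.8, 41.6 and 42.8 CPM) for Lrrtm2. SPN-like nuclei were deeper (median of 4454.5 to 5811.5 against 1433 to 1804 UMIs), and the free-RNA level within them was not measured. Whether Lrrtm2 stood above free RNA in SPN-like nuclei was thus not tested.

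**Figure D2:**
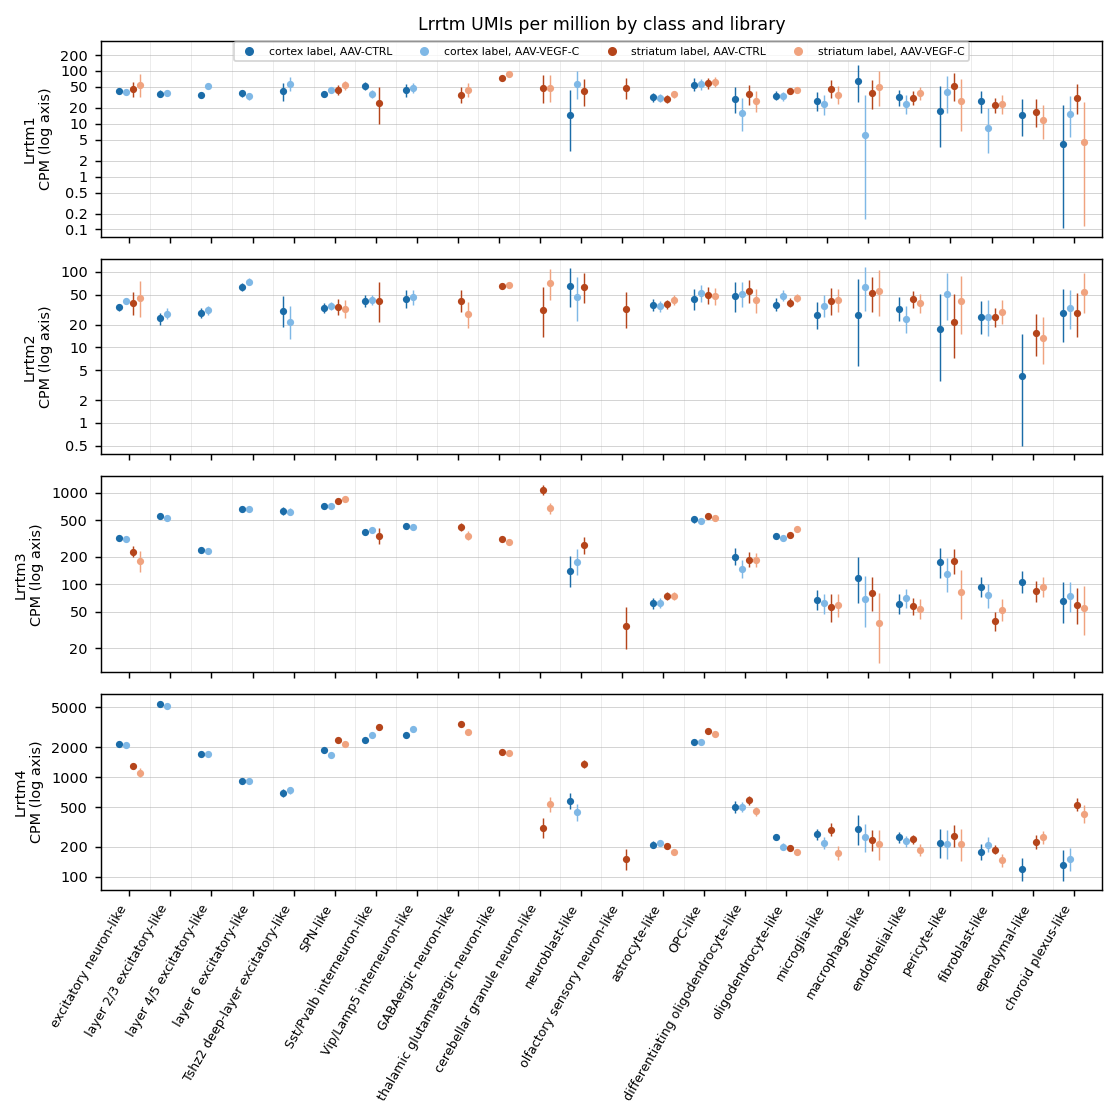
Levels of Lrrtm1, Lrrtm2, Lrrtm3 and Lrrtm4 in CPM (log axis) in each named class with at least 50 nuclei in a library, with points for libraries and exact 95% Poisson intervals. Lrrtm4 was higher in layer 2/3-like (5466 and 5200 CPM) than in layer 6-like nuclei (912 and 909 CPM), whereas Lrrtm3 was higher in layer 6-like (668 and 660 CPM) than in layer 4/5-like nuclei (240 and 234 CPM).

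The alpha-catenin genes that enclose 3 Lrrtm genes, encoding linkers of cadherins to actin, were read beside them. Ctnna3 had mean levels over libraries of 1010 CPM in oligodendrocyte-like, 1001 CPM in cerebellar granule neuron-like, 964 CPM in SPN-like and 845 CPM in layer 6-like nuclei, and 54.8 CPM in microglia-like nuclei. Across 24 named classes Ctnna3 had the profile most like that of Lrrtm3 among 12352 genes (Pearson r of 0.901 on log2(CPM + 1)), a description over classes that share their libraries and depth. Oligodendrocyte-like nuclei departed from the common course, with the highest Ctnna3 level and an Lrrtm3 level less than that of the neuronal classes of like Ctnna3. Ctnna2 was also highest in thalamic glutamatergic-like nuclei, at 2656 CPM, where Lrrtm1 was highest. Ctnna1 was highest in endothelial-like nuclei (229 CPM) and low in the neurons where Lrrtm2 was highest.

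**Figure D3:**
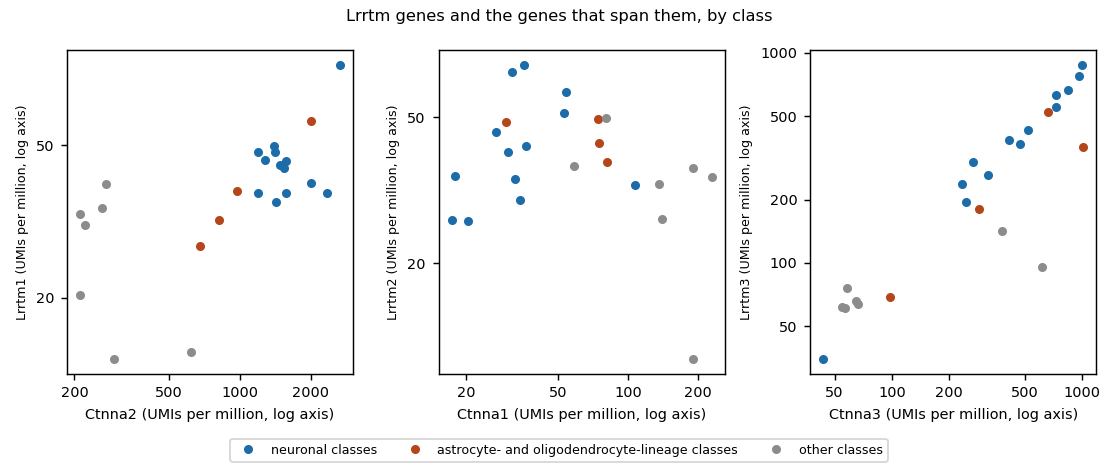
Each Lrrtm gene (vertical axis) against the alpha-catenin gene that spans it (horizontal axis), in CPM on log axes, with 1 point per named class as the mean over its libraries. Lrrtm3 and Ctnna3 were high in the same neuronal classes, with oligodendrocyte-like nuclei to the right of them at 1010 CPM of Ctnna3, and no such course was seen for Lrrtm2 and Ctnna1.

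The genes with the profiles most like the other members were listed by the same measure over 24 classes. For Nrxn2 they were 1700025G04Rik (r of 0.849), Znhit6 (0.801) and Gm29514 (0.800), and for Nrxn3 4930415C11Rik (0.910), Ptprn2 (0.896) and Mirg (0.887). For Nlgn1 they were Adgrb3 (0.917), Acp1 (0.896) and Il1rapl1 (0.894), of which Adgrb3 encodes a receptor of C1q-like proteins and Il1rapl1 another synaptic adhesion protein. Nlgn2 was most like Il17d (0.808), Klhl22 (0.776) and Nlgn3 (0.753), the only case of 1 member in another's list, and Nlgn3 was most like Apc2 (0.805), Asic1 (0.799) and Elfn2 (0.796). The list for Lrrtm1 was Slitrk3 (0.844), which encodes a synaptic organizer of inhibitory synapses, Rps6kl1 (0.838) and Ggt7 (0.815). Lrrtm2 had Dus3l (0.718), Plk4 (0.695) and Dync1li1 (0.689), the lowest values of the 9 genes. Lrrtm3 had, after Ctnna3, Otud7a (0.899) and Dock3 (0.893), and Lrrtm4 had Sntg1 (0.956), Dpp10 (0.910) and Egfem1 (0.905).

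Within SPN-like nuclei, members were compared between nuclei with Drd1 UMIs and nuclei with Drd2 or Adora2a UMIs. These genes encode receptors of the direct and indirect pathways. The split took 347, 502, 144 and 106 nuclei with Drd1 alone and 448, 585, 123 and 111 with Drd2 or Adora2a alone, while 42, 67, 12 and 7 nuclei had both and 303, 290, 115 and 70 had neither. Penk, a neuropeptide of the indirect pathway that was not used in the split, was at 27.8, 44.4, 36.4 and 16.3 CPM in the former and 729, 880, 626 and 788 CPM in the latter. Nrxn2 was lower in Drd1 nuclei in all 4 libraries, with 142, 156, 121 and 114 CPM against 279, 277, 212 and 277 CPM. The log2 ratios were -0.97, -0.82, -0.80 and -1.27, and the exact 95% interval of each lay below 0. Nlgn1 went the other way, with 4561, 4363, 5028 and 4856 CPM in Drd1 nuclei and 3787, 3585, 3812 and 3773 CPM in Drd2 or Adora2a nuclei, at log2 ratios of 0.27, 0.28, 0.40 and 0.36. Lrrtm4 was lower in Drd1 nuclei, with 1728, 1552, 2035 and 1989 CPM against 2136, 1898, 2586 and 2289 CPM, and Nrxn3 slightly so, at log2 ratios of -0.14, -0.10, -0.08 and -0.21. For all 4 of these genes the intervals left out 0 in every library and the sign was the same in each. The intervals of Nlgn2, Nlgn3, Lrrtm1 and Lrrtm2 held 0 in all 4 libraries, and that of Lrrtm3 in 3 of 4. Intervals narrow as UMIs rise, so small ratios of highly counted genes such as Nrxn3 can leave out 0. The split was not made over all genes, so how many other genes would do the same is not known.

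Within astrocyte-like nuclei the neurexins differed between clusters that the region labels hold in unequal numbers. A cluster led by Gldc and Slc1a3, with Mfge8 among its leading genes, held 1796, 2259, 386 and 173 nuclei, and a cluster led by Agt and Slc6a11 held 68, 65, 2101 and 1500. Nrxn2 was at 482, 466, 444 and 395 CPM in the Gldc-led cluster and at 387, 389, 253 and 265 CPM in the Agt-led cluster. Nrxn3 was at 735, 669, 627 and 1122 CPM in the former and 1006, 997, 1172 and 1052 CPM in the latter. The Gldc-led cluster was thus the higher one for Nrxn2 in all 4 libraries and the lower one for Nrxn3 in 3 of 4. Slc17a7, a transporter gene of cortical excitatory neurons that astrocytes lack, was at 374 CPM in the Gldc-led and 55.7 CPM in the Agt-led cluster. These values pool the 4 libraries, which hold the clusters in unequal numbers and differ in Slc17a7 themselves. They do not compare the clusters within a library, and the part of such free RNA in the Nrxn2 difference was not tested.

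**Figure D4:**
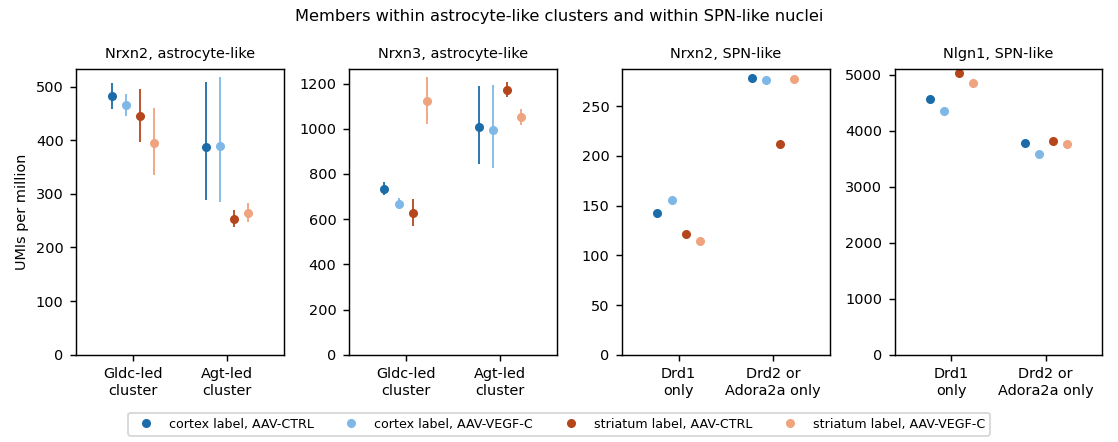
Nrxn2 and Nrxn3 in the Gldc-led and Agt-led astrocyte-like clusters, and Nrxn2 and Nlgn1 in SPN-like nuclei with UMIs of Drd1 alone or of Drd2 or Adora2a alone, in CPM on axes that start at 0. Points are libraries and bars in the astrocyte panels are exact 95% Poisson intervals. Nrxn2 was lower (114 to 156 against 212 to 279 CPM) and Nlgn1 higher (4363 to 5028 against 3585 to 3812 CPM) in Drd1 nuclei of every library.

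The comparison of AAV-VEGF-C with AAV-CTRL asked whether VEGF-C given through the cerebrospinal fluid changes these genes in the brain. Over all kept nuclei no member was past 0.32 on the log2 scale, in either direction and under either region label. Under the cortex label, where 7.49% of 17012 genes with at least 100 UMIs were past that size, the members' log2 ratios ran from -0.04 for Nlgn1 to 0.20 for Lrrtm2 (95% interval 0.11 to 0.28), and 0 of 9 were past it. The median of the members was 0.03 and that of all genes tested was -0.005. Under the striatum label, with a background of 12.2% of 17474 genes, again 0 of 9 were past it. There the members parted by sign, with Nrxn3 at -0.17, Lrrtm4 at -0.17 and Nlgn1 at -0.15, against 0.23 for Lrrtm1 (0.16 to 0.30), 0.15 for Nrxn2 and 0.11 for Nlgn2. The median was 0.07 for the members and 0.003 for all genes. Nrxn3, Nlgn1 and Lrrtm4 also had the 3 lowest ratios under the cortex label. There Nrxn3 (4266 and 4281 CPM) and Lrrtm4 (2166 and 2149 CPM) hardly differed between AAV groups.

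By named class, 10 of 129 member and class pairs with at least 100 UMIs were past 0.32 under the cortex label (4 higher and 6 lower in AAV-VEGF-C, over 17 classes), a share below the background of 14.5% of 107518 gene and class pairs. Under the striatum label 15 of 86 pairs were past it (4 higher and 11 lower, over 12 classes), against a background of 17.5%. The former share was 7.75% and the latter 17.4%, about its background. With called doublets and doublet clusters kept, the pairs under the striatum label were 25 of 95 (26.3%), against 19% of all gene and class pairs, and the share was also above its background at Leiden resolution 2 (19% against 17.1%) and after thinning (20.6% against 19.3%). Where the members stand against the background under that label thus depended on these settings. Nlgn1 was lower in AAV-VEGF-C in 16 of 17 classes under the cortex label, by at most 0.30 on the log2 scale, and in 11 of 12 classes under the striatum label. Nrxn3 and Lrrtm4 were each lower in 11 of 12 classes under the striatum label, but in 10 of 17 and 8 of 16 under the cortex label. The background class moved with them, since Lrrtm4 in microglia-like nuclei went from 298 to 174 CPM under the striatum label, a log2 ratio of -0.78 (-1.11 to -0.45). The part of free RNA in these class values was not tested. Classes under a label come from the same libraries and are not independent, and classes of 1 sign were not counted over all genes.

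Nrxn3 was past 0.32 in differentiating oligodendrocyte-like nuclei under both labels. It went from 534 to 405 CPM under the cortex label (log2 ratio -0.40, -0.67 to -0.13, on 234 and 228 UMIs) and from 564 to 356 CPM under the striatum label (-0.66, -0.90 to -0.43, on 356 and 262 UMIs), below the microglia-like level in each library. With nuclei thinned to 1000 UMIs the ratio was 0.17 under the cortex label and -0.36 under the striatum label, so that the direction under the cortex label did not hold. Of the members with 100 UMIs in this class, 2 of 5 under the cortex label and 4 of 7 under the striatum label were past 0.32, against 27% and 22.5% of all genes there. Other single class ratios differed between classes. Lrrtm1 went from 35.1 to 52.0 CPM in layer 4/5-like nuclei (log2 ratio 0.57, 0.31 to 0.83) and from 51.8 to 36.3 CPM in Sst/Pvalb interneuron-like nuclei (-0.51, -0.85 to -0.17), both under the cortex label, on 192 and 351 UMIs in the former and 157 and 138 in the latter. Nlgn3 went from 73.9 to 93.7 CPM in SPN-like nuclei under the cortex label (0.34, 0.16 to 0.53), and from 85.9 to 92.1 CPM under the striatum label. In GABAergic neuron-like nuclei under the striatum label Nrxn2 went from 329 to 429 CPM (0.38, 0.17 to 0.60) while Nlgn1 went from 3557 to 2834 CPM (-0.33, -0.40 to -0.26). Cerebellar granule neurons lie outside both labelled regions, and in nuclei like them 3 of 5 members with 100 UMIs were past 0.32 between the striatum-labelled libraries, against 32.5% of all genes there, with Lrrtm3 at 1077 and 676 CPM (-0.67, -0.95 to -0.40), Nrxn2 at 626 and 444 CPM (-0.49, -0.85 to -0.14) and Lrrtm4 at 309 and 534 CPM (0.79, 0.38 to 1.21). With 1 library per group, a difference between AAV groups and one between pools of mice or preparations cannot be told apart.

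**Figure D5:**
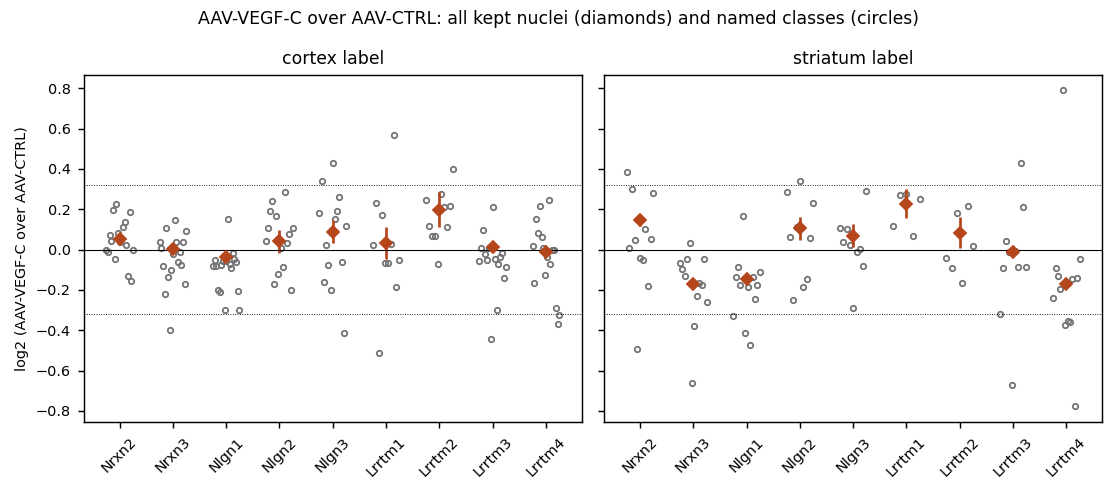
Log2 ratio of AAV-VEGF-C over AAV-CTRL for each member in the libraries labelled cortex and striatum, with diamonds for all kept nuclei (bars are exact 95% intervals of counting error) and circles for named classes with at least 100 nuclei in both libraries and 100 UMIs. Dotted lines mark 0.32 in either direction, which no diamond passed, and circles of Nrxn3, Nlgn1 and Lrrtm4 lay below 0 in 11 of 12 classes under the striatum label. Circles under a label come from the same libraries and are not independent.

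Between region labels the members differed more, within a background in which close to 1 in 2 genes did. Over all kept nuclei 1 of 9 members was past 0.32 on the log2 scale in AAV-CTRL (49.5% of 17322 genes were) and 3 of 9 in AAV-VEGF-C (48.9% of 17397 genes). Nrxn3 was lower under the striatum label in both, at log2 ratios of -0.39 and -0.56. Nlgn1 was at -0.29 and -0.40, and Lrrtm1 was higher, at 0.26 and 0.46. The other members lay between -0.28 and 0.29. The median of the members was -0.12 and -0.09, against 0.19 and 0.19 for all genes tested, and trimmed-mean or median-of-ratios scaling lowered every region ratio by 0.17 to 0.20, so that Nlgn3 (0.09 and 0.08) turned negative under both and Lrrtm2 (0.29 and 0.18) did so in AAV-VEGF-C. Under these scalings Lrrtm1 in AAV-VEGF-C was at 0.26 and 0.27 and no longer past 0.32, Lrrtm4 (-0.48 and -0.47) and Lrrtm3 (-0.37 and -0.36) came to be past it, and 4 of 9 members were past it. In AAV-CTRL they put Lrrtm1 at 0.08 and Nlgn1 (-0.47) and Nrxn2 (-0.36) past 0.32. The share of all genes past 0.32 under these scalings is not given here, so these counts have no background beside them.

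Within named classes 27 of 78 member and class pairs were past 0.32 on the log2 scale in AAV-CTRL (6 higher and 21 lower under the striatum label, over 11 classes), against a background of 38.5%, and 28 of 65 in AAV-VEGF-C (5 higher and 23 lower, over 9 classes), against 35.3%. Nrxn2 was lower under the striatum label in 10 of 10 classes in AAV-CTRL and 9 of 9 in AAV-VEGF-C. Its largest difference was in astrocyte-like nuclei, from 480 to 289 CPM and from 464 to 299 CPM (-0.73, -0.83 to -0.63, and -0.64, -0.74 to -0.53), where the region labels hold different clusters, as given above. Microglia-like nuclei, the background class, differed in the same direction (-0.48 and -0.53). All classes come from the same libraries, so they are not independent of each other, and no such count of classes was made over all genes. OPC-like nuclei, where Nrxn2 was highest, were the class with the smallest difference, at -0.03 and -0.02.

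Nrxn3 in astrocyte-like nuclei was higher under the striatum label, from 747 to 1086 CPM in AAV-CTRL (0.54, 0.47 to 0.61) and from 680 to 1051 CPM in AAV-VEGF-C (0.63, 0.56 to 0.70), while microglia-like and fibroblast-like nuclei had lower values under that label. The labels hold different astrocyte-like clusters, and within the Gldc-led cluster Nrxn3 was at 735 and 627 CPM in AAV-CTRL, lower under the striatum label, and at 669 and 1122 CPM in AAV-VEGF-C. Lrrtm4 in OPC-like nuclei was at 0.38 and 0.27. Oligodendrocyte-like nuclei also came from different clusters, 1 led by Prr5l (164, 168, 3034 and 2811 nuclei) and 1 led by C030029H02Rik (1488, 1740, 438 and 309 nuclei). Over both, Lrrtm3 was at 0.04 in AAV-CTRL and 0.34 in AAV-VEGF-C (0.24 to 0.45). Within the Prr5l-led cluster it had 394, 346, 359 and 415 CPM and within the other 333, 318, 266 and 284 CPM, so that the latter was lower under the striatum label in both AAV groups. Nrxn3 had 596, 559, 499 and 488 CPM in the Prr5l-led and 725, 637, 679 and 643 CPM in the other cluster. In excitatory neuron-like nuclei of AAV-CTRL Nlgn1 was at 0.67 and Lrrtm4 at -0.75, but this class was made of different clusters under the 2 labels, mostly those led by Nrgn and by Rspo2 under the cortex label and by Nrgn and by Ccbe1 under the striatum label.

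The genes that act with the families were described by list over all kept nuclei. Ratios within classes were not computed for these genes, and the labels hold different cell mixes. The shares of all genes past 0.32 stand at 7.49% (cortex label) and 12.2% (striatum label) for the AAV groups. Of 11 extracellular ligands of neurexins, 2 were past 0.32 higher and 0 lower in AAV-VEGF-C under each label. Nxph4, which encodes a neurexophilin, was the highest under both, at log2 ratios of 0.72 (0.45 to 1.00) and 0.58, and the lowest were Cbln4 (-0.17) and Nxph1 (-0.05). The median of the list was 0.005 and 0.13. Of 12 intracellular scaffolds 0 were past it under either label, with Lin7b highest (0.16 and 0.18) and Shank2 (-0.19) and Gphn (-0.22), the gene of the inhibitory scaffold gephyrin, lowest, and medians of -0.04 and -0.05. The neuroligin inhibitors Mdga1 and Mdga2 (-0.15 and -0.05 under the cortex label, 0.03 and -0.15 under the striatum label) and the 3 Khdrbs genes, regulators of neurexin splicing (extremes Khdrbs2 at -0.03 and Khdrbs1 at 0.03 under the cortex label, Khdrbs3 at -0.06 and Khdrbs1 at 0.04 under the striatum label), were not past it either. Gpc4 was at -0.11 under the cortex label and at -0.48 (-0.63 to -0.34) under the striatum label, where the C1ql2-led cluster with the highest Gpc4 level numbered 227 and 131 nuclei. Of 26 other synaptic organizers 1 was past it under each label, Slitrk6 (0.42, -0.17 to 1.03, and 0.38), with Ptprf (-0.09) and Tenm3 (-0.18) lowest and medians of -0.02 and 0.004. The enclosing alpha-catenins ran from -0.16 (Ctnna3) to -0.03 (Ctnna1) under the cortex label and from -0.07 (Ctnna2) to 0.17 (Ctnna3) under the striatum label.

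Between region labels, where 49.5% (AAV-CTRL) and 48.9% (AAV-VEGF-C) of all genes were past 0.32, the ligands had 6 higher and 4 lower of 11 under the striatum label in both AAV groups. Cbln1, a cerebellin that links neurexins to glutamate receptors, was at 2.80 and 2.99 and C1ql3 at -2.38 and -2.15. Cbln1 had its highest level in the cerebellar granule neuron-like nuclei, of which the cortex-labelled libraries held 11 and 5. Scaffolds had 2 higher and 4 lower of 12 in AAV-CTRL and 1 higher and 4 lower in AAV-VEGF-C, with Gphn (0.43) and Apba1 (0.50) highest and Lin7b (-0.89 and -0.87) lowest. Mdga2 was past 0.32 in both groups (0.52 and 0.42) and Mdga1 was not (0.08 and 0.25). Khdrbs3 was at -1.55 and -1.59, and Khdrbs1 at 0.09 and 0.10. Gpc4 was at -0.30 and -0.67. The other synaptic organizers had 5 higher and 8 lower of 26, and 6 higher and 7 lower, from Ptprd (-0.97 and -0.96) to Slitrk6 (4.51 and 4.47). The shares of scaffolds and organizers past 0.32 were near or at that of all genes. The alpha-catenins were not past it, with Ctnna2 highest (0.31 and 0.29) and Ctnna3 lowest (-0.20 and 0.13). The medians of these lists, in the order of ligands, scaffolds and organizers, were 0.44, -0.11 and -0.17 in AAV-CTRL and 0.43, -0.14 and -0.14 in AAV-VEGF-C, beside 0.19 for all genes in both.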

How the data were processed

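The authors isolated nuclei from pulverised frozen tissue, prepared droplet-based 3′ libraries (10x Genomics) and deposited UMI counts per gene and nucleus. The file header names Cell Ranger 5.0.1, the submitters' processing notes name Cell Ranger 5.1.1 and the build mm10, and whether introns or strand were used is not given in the sources used here. Counts were taken as deposited. Doublets were called per library with Scrublet in scanpy 1.11.5 (Python 3.11.15) at an expected rate of 8%, and called nuclei (4.50% to 8.67%) and clusters with over 40% of them were removed, leaving 72723 of 78728 nuclei. Nuclei were clustered on 5000 variable genes without the members and their partners, 50 components, 15 neighbours and Leiden resolution 1.2 (leidenalg 0.10.2). Of 78 clusters 61 were kept and 34 were given one of 24 class names from marker lists (at least 3 markers and 50% of the list), and 22 neuronal clusters stayed unnamed. Names rest on markers and "-like" is used for that reason.

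Counts were summed per class and library and scaled to 1000000 (CPM), with exact Poisson 95% intervals for levels, exact binomial ones for shares and exact conditional binomial ones for ratios (scipy 1.17.1). No test was made, since each group had 1 library. Ratios needed 100 nuclei in both libraries of a class and 100 UMIs, levels in the order of classes 50 nuclei, and single values 20 UMIs. Genes named are the members, the extremes of each partner list in each comparison, and the 3 genes most like each member (at least 1000 UMIs, pseudocount of 1). The code for ratio intervals was run on simulated Poisson counts, the model that these intervals assume. That run checked the code only and left out any spread beyond counting error. The members, lists and thresholds for naming were chosen with earlier results of these data known. Alternatives used TMM (edgeR 4.0.16) and DESeq2 1.42.0 size factors only as scalings.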

Additional observations from a re-analysis of the deposited data

How the results depend on the processing

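Levels, ratios, counts and the Drd1 split, but not profile correlations or levels within single clusters, were recomputed with doublets kept, with Leiden resolution 2, with equal weight per nucleus, with nuclei thinned to 1000 UMIs, and, for ratios, with TMM or DESeq2 scaling. No paired analysis was possible because no result comes from a test, each group has 1 library and the labels give no replicate numbers. Both region labels of an AAV group share mice, and each region ratio was taken within its AAV group. No replicate could be left out. Nrxn2, Nlgn2 and Nlgn3 stayed highest in OPC-like nuclei among named classes under all 4 alternatives to clustering and weighting. How many of all genes were highest there was not counted. The top class of Lrrtm2 became GABAergic neuron-like (72.1 CPM) at resolution 2 and thalamic glutamatergic-like (72.9 CPM) after thinning. Members past 0.32 on the log2 scale between region labels in AAV-CTRL numbered 1, but 2 with equal weight, 3 with TMM and 4 with DESeq2 factors. The shares of all genes under these settings are not given beside these counts. Member and class pairs past it numbered 25 in place of 15 for AAV groups under the striatum label with doublets kept (95 in place of 86 pairs, in 13 in place of 12 classes), and 17 in place of 28 for region labels in AAV-VEGF-C after thinning, which left 48 in place of 65 pairs with 100 UMIs. Without the minimum of 100 UMIs per gene, the background rose from 1274 to 5610 and from 2134 to 7088 genes for AAV groups under the cortex and striatum labels, and from 8578 to 13874 and from 8505 to 13839 for region labels in AAV-CTRL and AAV-VEGF-C. Signs turned for these ratios. Nrxn3 between AAV groups in differentiating oligodendrocyte-like nuclei under the cortex label became 0.1726 after thinning. Lrrtm4 between AAV groups under the cortex label became 0.0053 with equal weight and 0.0041 after thinning. Nlgn3 between region labels became -0.038, -0.0526, -0.0803 and -0.085 in AAV-CTRL, and -0.0272, -0.0631, -0.1205 and -0.1109 in AAV-VEGF-C, with equal weight, thinning, TMM and DESeq2 factors. Lrrtm2 between region labels in AAV-VEGF-C became -0.0174 with TMM and -0.0078 with DESeq2 factors. The cause was not tested. Depth limits Lrrtm1 and Lrrtm2 most, with 1943 to 3422 UMIs per library.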
